A study of Caenorhabditis elegans with 45 samples.

Results

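The mitochondrial genome of the nematode Caenorhabditis elegans carries 12 annotated protein genes, and 10 of them are described here in wild strains, in the laboratory strain N2 and in their F1 hybrids. The members were taken by name from the genes annotated on MtDNA, by a rule that reads no measured value. They are 10 of 22900 genes with at least 1 count in the series, and all 10 were among the 17188 genes that passed the filter on low counts. The deposited gene tables give identifiers only. The WBcel235 gene annotation names WBGene00010957 as ND6, WBGene00010959 as ND1 and WBGene00010962 as COX3. For the others RefSeq's gene at the same position gave the symbol, which made WBGene00010960 ATP6, WBGene00010961 ND2, WBGene00000829 CYTB, WBGene00010963 ND4, WBGene00010964 COX1, WBGene00010965 COX2 and WBGene00010967 ND5. All lie on the plus strand of MtDNA, with 1 annotated transcript each.

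The nematode mitochondrial genome is a small circle that is transcribed inside the organelle, and all of its protein products are subunits of the respiratory chain or of ATP synthase. Each of these complexes also holds subunits made from nuclear genes, so that its assembly draws on both genomes. In C. elegans the mitochondrial genome is passed on by the mother, and sperm mitochondria are normally degraded in the early embryo.

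RNA sequencing was done on polyadenylated RNA from whole day 1 adult hermaphrodites that carried embryos, in 45 libraries that formed 15 groups of 3. The parental groups were N2 and the wild strains CB4856, DL238, ECA701, ECA722, EG4348, QX1211 and XZ1516, all grown from self progeny. Each F1 group had fog-2 mutant N2 mothers, which lack sperm of their own, and fathers of 1 wild strain, so that its mitochondria were to come from N2 and its nuclear genome from both parents. Males were taken off the plates, and the 3 RNA extraction batches contained a replicate of every group. The batches were not tied to replicate numbers in the labels, and nothing states that replicates came from separate crosses, so p-values measure the spread between these samples. The genotype label of the N2 parental libraries names a fog-2 deletion and their strain label is CB4108, while fog-2 stood at 36.5 to 45.7 CPM (read counts scaled to a common library size) in them, beside 31.7 to 46.1 CPM in the wild parents and 20.9 to 31.3 CPM in the F1 libraries. The text therefore speaks of the libraries labelled N2, and of N2 where a comparison is named.

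Libraries held 24.8 to 91.9 M reads assigned to genes, and the members together took 0.625% to 1.15% of them. At most 0.0568% of the fragments assigned to mitochondrial genes also matched a nuclear gene. Members were quantified against the N2 sequence and the sequence of each library's wild strain at once, and levels are given as CPM after TMM scaling. In whole animals, fewer mitochondria or fewer cells of a type and less RNA per cell cannot be told apart.

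Within the genome the members formed a steep order of levels per length. In the libraries labelled N2, COX3 stood at 1691 ± 126 CPM per kb, COX1 at 1661 ± 152, CYTB at 1528 ± 124, ATP6 at 1519 ± 158 and COX2 at 1273 ± 117 (SD, n = 3). The ND genes were lower, with ND1 at 551 ± 47.7 CPM per kb, ND4 at 269 ± 28.2, ND5 at 166 ± 22.2, ND6 at 82.0 ± 21.9 and ND2 at 47.7 ± 16.9 (SD, n = 3). COX3 and COX1 did not keep a fixed order, COX3 being higher per kb in 25 of 45 libraries, and CYTB was higher than ATP6 in 2 of 45. COX2 was above ND1, ND1 above ND4 and ND6 above ND2 in 45 of 45 libraries, ND4 was above ND5 in 41 and ND5 above ND6 in 44. In the libraries labelled N2 the ranges of neighbours overlapped from COX3 down to COX2, although COX1 was above CYTB and ATP6 above COX2 within each of the 45 libraries. The complex I genes were lower than all the others.

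**Figure D1:**
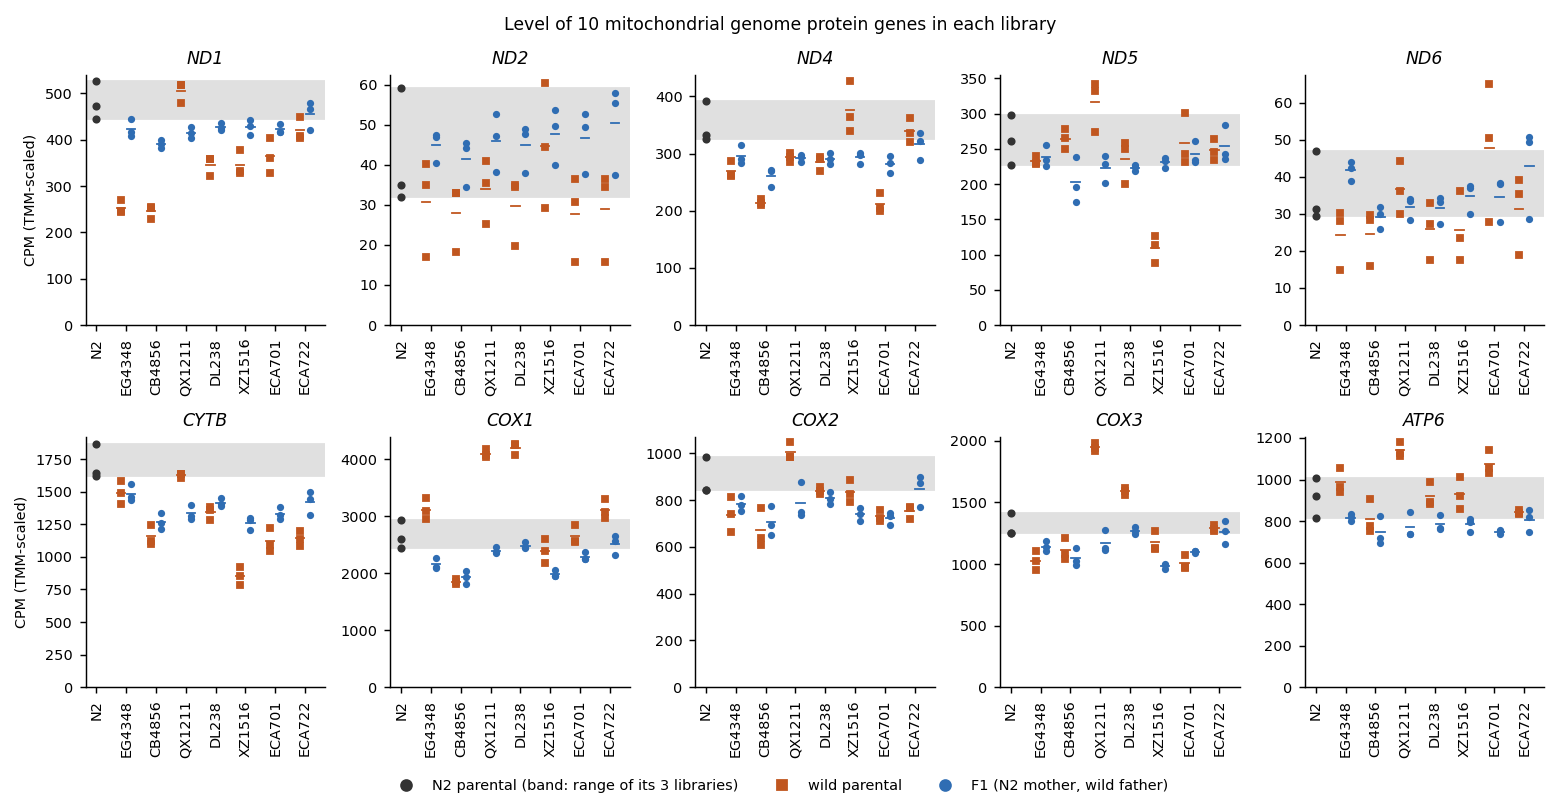
CPM after TMM scaling (vertical axis, from 0) of each member in each of the 45 libraries, by strain (horizontal axis), with the libraries labelled N2 in black, wild parents as orange squares and F1 libraries as blue circles. Horizontal dashes are group means of 3 libraries and the grey band spans the 3 libraries labelled N2. ND5 in XZ1516 parents (87.5 to 126 CPM) and COX1 in QX1211 and DL238 parents (4031 to 4272 CPM) stand far from the N2 band, and their F1 libraries do not.

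The first comparison asked how the wild strains' own mitochondrial transcripts differed from those of N2. Parental strains differed in 9 of 10 members by edgeR's quasi-likelihood test over all 8 groups (Benjamini-Hochberg adjusted p under 0.05), where 87.5% of all genes tested passed the same test. This fit takes no account of replicate numbers. ND2 did not pass in it (adjusted p = 0.194), but passed with the number as a replicate block, as given at the end. ND6 had an adjusted p of 0.0159 that was 0.143 without ECA701 parental replicate 2 and 0.058 without its replicate 3. Against N2, 37 of 70 tests of a member in a wild strain passed, 28 of them lower and 9 higher in the wild strain. In CB4856 6 of 10 members were called, all lower, where 30.5% of all genes tested were called and 16% were lower. In EG4348 6 were called (32.1% of all genes), 1 higher and 5 lower (14.6% and 17.6%). DL238 had 5 (35.8%), 2 higher and 3 lower (17.5% and 18.3%), and XZ1516 had 5 (45.1%), all lower (25.6%). QX1211 had 5 (46%), 4 higher and 1 lower (22.2% and 23.8%), ECA701 had 6 (52.7%), 1 higher and 5 lower (25.5% and 27.1%), and ECA722 had 4 (41.6%), 1 higher and 3 lower (20.8% in each direction). In QX1211, XZ1516, ECA701 and ECA722 the members' share of calls was near this background. The median log2 difference over the members ran from -0.54 in CB4856 to 0.12 in QX1211, beside medians of -0.05 to 0.03 over all genes tested. Of the 37 calls, 27 were kept when any single library of the 2 groups was left out. The excess of lower calls rested in part on 1 library. Without N2 parental replicate 3, 32 of 70 tests passed, 20 lower and 12 higher, and the median log2 difference over the 70 tests was -0.08.

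Complex I is the entry point of electrons from NADH, and its members ND1, ND2, ND4, ND5 and ND6 form part of its membrane arm. ND1, at positions 1763 to 2635 of the plus strand of MtDNA in WBcel235, was at 444, 473 and 526 CPM in the 3 libraries labelled N2. It was at 244, 247 and 269 CPM in EG4348 parents. In CB4856 parents it was at 252, 255 and 229 CPM, and neither strain overlapped N2. ND1 was lower in EG4348 by a log2 difference of -0.93 (SE 0.0661, adjusted p = 3.17e-14) and in CB4856 by -0.97 (SE 0.0663, adjusted p = 6.92e-15). It also fell in DL238 and XZ1516, by 0.47 on the log2 scale in each, and in ECA701 by 0.40. In ECA722 its log2 difference of -0.19 had an adjusted p of 0.016, and the call was lost without ECA722 parental replicate 1 or 3 or N2 parental replicate 3 (adjusted p up to 0.24). In QX1211 its log2 difference was 0.07 and did not pass.

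ND5, at positions 11691 to 13272, showed the largest difference of any member, and in a single strain. It was at 261, 227 and 297 CPM in the libraries labelled N2 and at 113, 126 and 87.5 CPM in XZ1516 parents, without overlap. The log2 difference was -1.26 (SE 0.117, adjusted p = 1.78e-11). In the other wild strains ND5 lay between log2 differences of -0.17 and 0.27. Its value in QX1211, 0.27, had an adjusted p of 0.0488 and its groups overlapped. That call was lost without replicate 1 or 2 of either group, with an adjusted p of up to 0.263.

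ND4, at positions 6506 to 7808, was at 332, 326 and 393 CPM in the libraries labelled N2. It was at 200.04, 232 and 205 CPM in ECA701 parents and at 210.0, 213 and 219.8 CPM in CB4856 parents, below every N2 library. The log2 differences were -0.72 in ECA701 (SE 0.0712, adjusted p = 7.15e-11) and -0.71 in CB4856 (SE 0.0715, adjusted p = 2.43e-10). ND4 fell by less in EG4348 (-0.38), DL238 (-0.30) and QX1211 (-0.25, adjusted p = 0.00331), and the QX1211 call had an adjusted p of 0.0779 without N2 parental replicate 3. In XZ1516, where ND5 was lowest, ND4 was at 365, 427 and 339 CPM and overlapped N2.

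ND2 (positions 3389 to 4269) and ND6 (positions 113 to 549) were the least abundant members, at 15.7 to 60.3 CPM and 14.7 to 65.1 CPM over the 21 wild parental libraries. In the fit that takes no account of replicate numbers, neither passed against N2 in any of the 7 wild strains, with log2 differences of -0.61 to 0.09 for ND2 and -0.56 to 0.41 for ND6. For both genes replicate 1 was the lowest of its group in 14 of 15 groups, which widened their spread. With the replicate number as a block, both were called lower than N2 in some wild strains, as given at the end. Whether this was related to the extraction batches was not tested, because the labels do not name the batch of a replicate.

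CYTB encodes cytochrome b, the mitochondrial subunit of complex III, at positions 4504 to 5621. It was at 1618, 1641 and 1868 CPM in the libraries labelled N2 and at 852, 919.7 and 783 CPM in XZ1516 parents, without overlap. The log2 difference in XZ1516 was -1.005 (SE 0.0638, adjusted p = 4.77e-16). CYTB was also lower in ECA701 (-0.61), ECA722 (-0.58), CB4856 (-0.56) and DL238 (-0.35), in each with no overlap with N2. In EG4348 the difference was -0.20 with an adjusted p of 0.0156, and the call was lost without EG4348 parental replicate 1 or 2 or N2 parental replicate 3 (adjusted p up to 0.267). In QX1211 it was at 1632, 1608 and 1636 CPM with a log2 difference of -0.07 that did not pass. CYTB was thus called lower in 6 of 7 strains and higher in none, as was ND1.

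COX1, COX2 and COX3 encode the catalytic core of complex IV, which passes electrons to oxygen, and here the wild strains went in both directions. COX1, at positions 7827 to 9428, was at 2606, 2449 and 2928 CPM in the libraries labelled N2. It was at 4243, 4272 and 4066 CPM in DL238 parents and at 4178, 4081 and 4031 CPM in QX1211 parents, all above N2. In CB4856 parents it was at 1813, 1838 and 1893 CPM, below every N2 library. The log2 differences were 0.66 in DL238 (SE 0.0609, adjusted p = 2.64e-11), 0.62 in QX1211 (SE 0.0609, adjusted p = 7.19e-11) and -0.53 in CB4856 (SE 0.0609, adjusted p = 6.4e-09). COX1 was higher by 0.23 in both EG4348 and ECA722. Its call in XZ1516 (-0.16, adjusted p = 0.0328) had overlapping groups and was lost without replicate 1 or 3 of either group (adjusted p up to 0.539) and under every other setting tried but the replicate block.

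COX3, at positions 5678 to 6449, was at 1251, 1249 and 1418 CPM in the libraries labelled N2 and at 1941, 1921 and 1982 CPM in QX1211 parents. It rose in QX1211 by a log2 difference of 0.58 (SE 0.0629, adjusted p = 1e-09) and in DL238 by 0.29 (SE 0.0628, adjusted p = 0.000378). It was lower in ECA701 (-0.38) and EG4348 (-0.35). The lower values in CB4856 (-0.23) and XZ1516 (-0.15) passed as well. The first was lost without CB4856 parental replicate 1 or 2 or N2 parental replicate 3 (adjusted p up to 0.13), and the second without any 1 of the libraries labelled N2 or XZ1516 parental replicate 1 or 3 (adjusted p up to 0.516). COX2, at positions 9649 to 10348, was lower in CB4856 by a log2 difference of -0.41 (SE 0.0767, adjusted p = 5.11e-05) and in ECA701 by -0.29. Its lower values in EG4348 (-0.27) and ECA722 (-0.24) did not pass without N2 parental replicate 3 (adjusted p = 0.124 and 0.165), nor without replicate 1 of the wild strain (0.116 and 0.0818). DL238 thus held more COX1 and COX3 transcript than N2, while COX2 differed there by -0.08 and did not pass.

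ATP6, a membrane subunit of ATP synthase at positions 2634 to 3235, was at 920.3, 817 and 1007 CPM in the libraries labelled N2. It was called in 2 wild strains, both higher. It rose in QX1211 by a log2 difference of 0.32 (SE 0.0725, adjusted p = 0.000404), and in ECA701 by 0.24 with an adjusted p of 0.00663 that was 0.0642 without N2 parental replicate 2. Summed over the members, QX1211 parents reached 10921 to 11135 CPM, above the 8086 to 9528 CPM of the libraries labelled N2. Below that range lay CB4856 parents at 6101 to 6785 CPM, XZ1516 parents at 6594 to 7703 and ECA701 parents at 7174 to 8079. The other wild parents overlapped N2 in total.

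**Figure D2:**
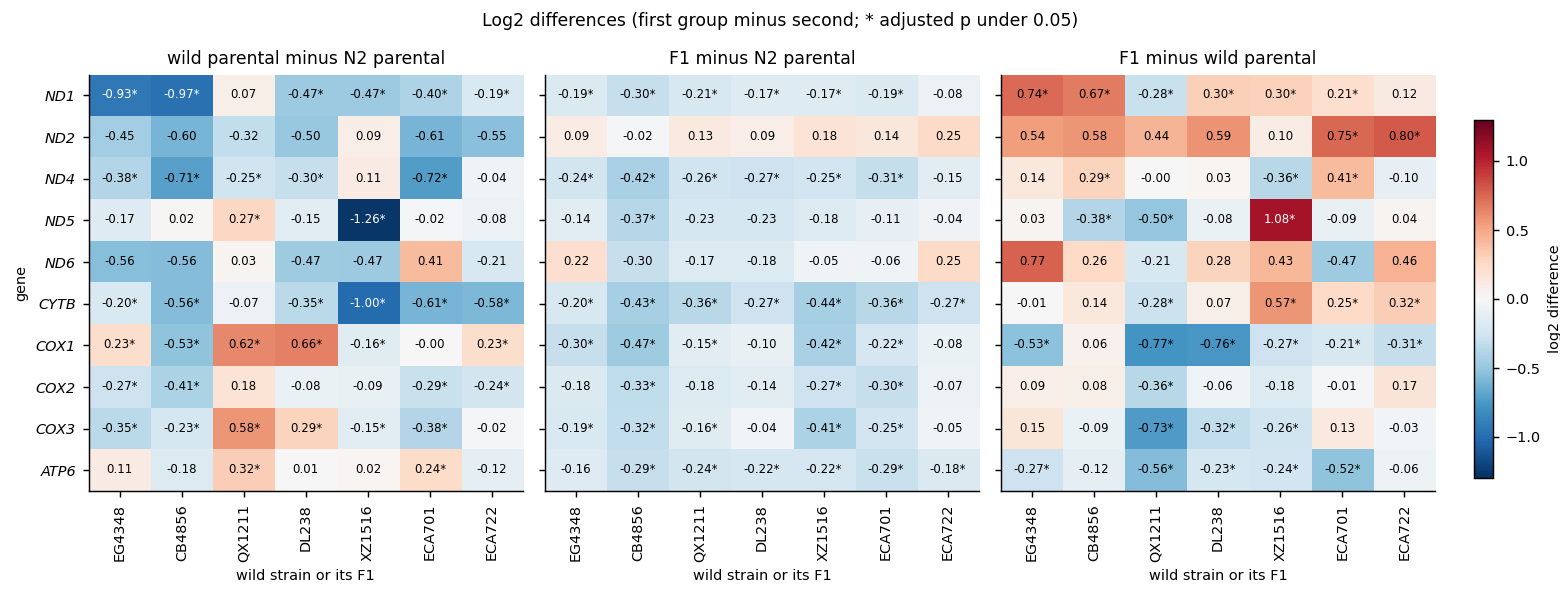
Log2 differences (colour and printed value, first group minus second) of each member (rows) in each wild strain or its F1 (columns), for wild parental minus N2 parental, F1 minus N2 parental and F1 minus wild parental. Asterisks mark adjusted p under 0.05 in edgeR's quasi-likelihood test over all genes. The values of wild parents range from -1.26 to 0.66, while those of F1 against N2 range from -0.47 to 0.25.

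The F1 comparisons asked which parent the hybrids resembled in these transcripts. Against N2, F1 libraries were lower in 39 of 70 tests and higher in none. In the CB4856 F1 8 of 10 members were lower, where 34.4% of all genes tested were called and 18% were lower. The count was 4 in the DL238 F1 (33.3% and 17.4%), 7 in the ECA701 F1 (46% and 26.5%) and 2 in the ECA722 F1 (35.4% and 18.9%). It was 5 in the EG4348 F1 (33.6% and 17.8%), 6 in the QX1211 F1 (38.2% and 19.9%) and 7 in the XZ1516 F1 (43.1% and 23%). The differences were small, with called log2 values of -0.15 to -0.47 and cross medians of -0.08 to -0.33 over the members, beside medians of -0.11 to -0.03 over all genes. This count rested in part on 1 library. N2 parental replicate 3 was the highest of the 3 libraries labelled N2 in all 10 members, and without it 18 of 70 tests passed, again all lower. In N2 parental replicates 1, 2 and 3, summed CPM of body wall muscle markers was 2370, 1140 and 1020. That of oocyte markers was 6500, 6550 and 6340, and that of intestine markers 488, 452 and 439. Intestine markers were called lower in 15 of 28 F1 tests against N2 and higher in 2, and oocyte markers higher in 42 of 42. Over all genes 17.5% of F1 tests against N2 were higher and 20.2% lower. The part of these markers' cell types in the members' lower values was not tested.

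CYTB was the member called lower in all 7 F1 groups, with log2 differences of -0.20 in the EG4348 F1 to -0.44 in the XZ1516 F1. Without N2 parental replicate 3 it kept its call in every cross but that of EG4348, where its adjusted p was 0.132. In the XZ1516 F1, CYTB was at 1205, 1299 and 1286 CPM, between the N2 range and the XZ1516 parental range and overlapping neither. Without that library the CB4856 F1 still had 7 members called, the ECA701 F1 4, the XZ1516 F1 3, and each other F1 1.

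Against the wild parents, 33 of 70 tests passed, 13 with the F1 higher and 20 with the F1 lower. In the CB4856 cross 3 of 10 members were called, where 34.1% of all genes tested were, with 2 higher and 1 lower (18.2% and 15.9%). The DL238 cross had 4 (24.1%), 1 higher and 3 lower (10.9% and 13.2%), and the EG4348 cross had 3 (21.8%), 1 higher and 2 lower (11.4% and 10.4%). The ECA701 cross had 6 (46.4%), 4 higher and 2 lower (20.8% and 25.6%), and the ECA722 cross had 3 (37.6%), 2 higher and 1 lower (17.8% and 19.8%). The QX1211 cross had 7 (48.9%), none higher and 7 lower (24.2% and 24.6%), and the XZ1516 cross had 7 (37.3%), 3 higher and 4 lower (22.4% and 14.9%). The 3 comparisons share libraries pairwise, so their values are set side by side below and no overlap between them is given.

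ND5 was at 237, 232 and 222 CPM in the XZ1516 F1, above all XZ1516 parents and partly within the N2 range. Its log2 difference from the XZ1516 parents was 1.08 (SE 0.117, adjusted p = 2.01e-09), and from N2 it was -0.18 and did not pass. ND1 was at 416, 444 and 408 CPM in the EG4348 F1 and at 392, 383 and 399 CPM in the CB4856 F1, above every library of the wild parent. It was higher than in the wild parent by 0.74 (SE 0.0659, adjusted p = 2.82e-11) and 0.67 (SE 0.0661, adjusted p = 2.11e-10), while its log2 differences from N2 were -0.19 and -0.30. The first of these was lost without N2 parental replicate 3 (adjusted p = 0.222) or EG4348 F1 replicate 1 or 3.

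COX1 was higher than N2 in 4 of 7 wild parents, and DL238 and QX1211 were the strains with the largest of these differences. It was at 2544, 2453 and 2447 CPM in the DL238 F1 and at 2456, 2375 and 2361 CPM in the QX1211 F1, far below the wild parents. The log2 differences from the wild parent were -0.76 for DL238 (SE 0.061, adjusted p = 1.13e-12) and -0.77 for QX1211 (SE 0.061, adjusted p = 5.38e-13). From N2 they were -0.10, which did not pass, and -0.15, which had an adjusted p of 0.0473 and overlapping groups. The QX1211 call was lost without N2 parental replicate 1 or 3 or any 1 of the QX1211 F1 libraries (adjusted p up to 0.435). COX3 in the QX1211 F1, at 1111, 1131 and 1274 CPM, was lower than in QX1211 parents by a log2 difference of -0.73 (SE 0.0631, adjusted p = 5.4e-12). The other crosses were not alike in COX1. It was called lower than N2 in 5 of 7 F1 groups. Without N2 parental replicate 3 it was called lower only in the EG4348, CB4856 and XZ1516 F1. The ECA722 F1, at a mean of 2512 CPM, differed from N2 (2661 CPM) by -0.08, which did not pass. The CB4856 F1, at a mean of 1927 CPM, differed from N2 by -0.47 and from its wild parent (1848 CPM) by 0.06, which did not pass.

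The F1 groups, which were all to carry the same mitochondrial genome, differed among themselves in 4 of 10 members. Of all genes tested 42.9% passed the same test, so the members' share was near this background. The adjusted p was 1.28e-06 for COX1, 2.87e-05 for COX3, 0.0143 for CYTB and 0.0455 for COX2, and COX2 did not pass in a fit of the F1 groups alone (adjusted p = 0.0673) or without 1 of 24 single libraries, with adjusted p up to 0.155. COX1 ranged from 1814 to 2653 CPM over the 21 F1 libraries, beside 1813 to 4272 CPM over the 21 wild parental libraries. The lowest COX1 values were those of the CB4856 and XZ1516 F1 groups, at 2033, 1814 and 1933 CPM and at 1951, 2054 and 1947 CPM. The highest mean was that of the ECA722 F1, at 2321, 2653 and 2563 CPM, which overlapped neither of these groups.

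Shares of the members' summed CPM describe the mix of transcripts whatever its total. ND1 made up 5.32% to 5.84% of the members' summed CPM in the libraries labelled N2, 5.33% to 6.52% in the F1 libraries and 3.04% to 5.23% in the wild parents, so that no wild parental library reached the lowest F1 or N2 library. CYTB made up 19.4% to 20.3% in the libraries labelled N2, 17.5% to 20.1% in the F1 libraries and 11.9% to 18.4% in the wild parents. COX1 made up 30.3% to 31.2%, 27.9% to 33.5% and 27.9% to 43.0% in the same order, with the DL238 parents highest at 42.7% ± 0.315 (SD, n = 3). The ND5 share of XZ1516 parents was 1.53%, beside 3.40% in the XZ1516 F1 and 3.02% in the libraries labelled N2 (means of 3). These shares are a description, without a test.

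**Figure D3:**
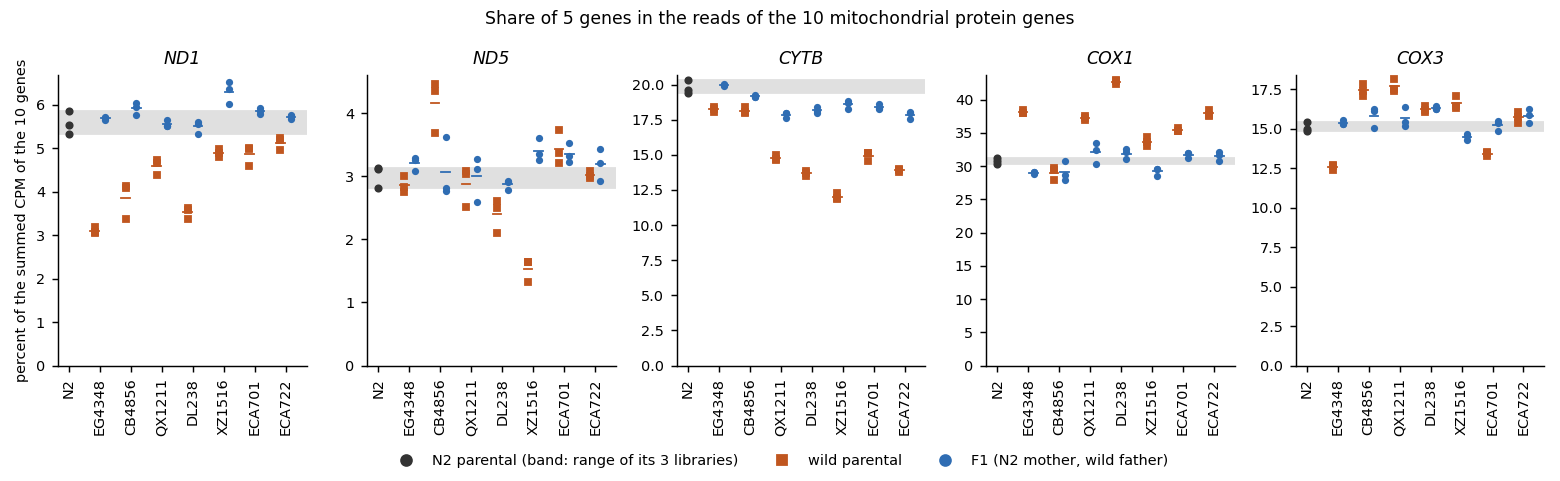
Percent of the summed CPM of the members (vertical axis, from 0) taken by ND1, ND5, CYTB, COX1 and COX3 in each library, by strain (horizontal axis), with colours, dashes and grey band as for levels by library. The wild parents lie below the N2 band and below all F1 libraries for ND1 (at most 5.23%). For COX1 the F1 libraries spread to both sides of the band (27.9% to 33.5%) and overlap the CB4856 and XZ1516 parents, while the parents of DL238 reach 43.0%.

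Reads that match the sequence of 1 allele alone were used to trace which mitochondrial genome the transcripts came from, with a limit for COX1 given below. In the wild parents at least 99.2% of such reads of each member carried the wild sequence. The libraries labelled N2 were quantified with QX1211 as the second allele, and at most 0.178% of a member's allele-specific reads there carried the QX1211 sequence. Nuclear reads of the F1 libraries came from both alleles, the median wild share over nuclear genes being 49.9% to 51.2% in the 21 F1 libraries. For EG4348 the files call the wild allele EG4349, and it was taken as that of EG4348.

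In the F1 libraries nearly all mitochondrial reads carried the N2 sequence. In the CB4856, DL238, ECA701, EG4348 and QX1211 crosses, at least 99.6% of the allele-specific reads of each member but COX1 were N2 reads. ND5 in the DL238 F1, with 12252 to 14016 allele-specific reads per library, had 0 to 2 reads of the DL238 sequence. ND2 in the same cross had 0 wild reads in all 3 libraries, among 1608 to 2375 allele-specific reads. ND6 had no allele-specific read in the CB4856 cross, so that its origin could not be read there, and 69 of 70 combinations of member and cross could be tested. All 69 passed with the N2 allele higher, by edgeR's quasi-likelihood test on allele counts. Genes called in either direction, and with the N2 allele higher, made up 7.82% and 4.52% of those tested in the CB4856 cross, 7.41% and 4.19% in the DL238 cross, 13.8% and 6.76% in the ECA701 cross and 9.76% and 4.52% in the ECA722 cross. They made up 8.43% and 4.62% in the EG4348 cross, 11.4% and 5.71% in the QX1211 cross and 17.3% and 6.79% in the XZ1516 cross. The log2 ratio of wild to N2 counts ran from -2.89 for COX1 in the CB4856 cross to -15.8 for ATP6 in the QX1211 cross, with adjusted p of at most 0.000682. Where wild reads were near 0 the size of this ratio depends on the prior count of the fit.

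COX1 was the member that departed from this in 4 crosses. Its wild-specific share was 3.95%, 4.01% and 3.93% in the EG4348 F1 libraries and 11.3%, 13.1% and 11.3% in the CB4856 F1 libraries. It was 6.74%, 7.04% and 6.47% in the DL238 F1 libraries and 7.17%, 7.85% and 7.80% in the ECA701 F1 libraries. For the CB4856 F1 replicate 2, the exact binomial 95% interval of the share was 12.8% to 13.4%, from 47805 allele-specific reads. The other members of the same 12 libraries stood at most at 0.411%, the value of ND2 in a CB4856 F1 library with 4 wild reads. Taken over all COX1 reads, shared ones included, the wild-specific reads of these 4 crosses were 3.59% to 5.67%. In the QX1211 F1 the COX1 wild share was 0.146% to 0.201%, beside 0.123% to 0.178% for the QX1211 sequence in the libraries labelled N2. The libraries labelled N2 were not quantified against the other wild sequences, so the background of COX1 for those strains was not analysed here. Whether the wild-specific COX1 reads of these 4 crosses came from a wild mitochondrial genome was not tested. In wild parents at most 0.06% of COX1 allele-specific reads carried the N2 sequence.

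The XZ1516 and ECA722 crosses had wild reads in every member and in each of their 3 libraries. In the XZ1516 F1 the wild share was 0.759% to 3.25% per member and library, and in the ECA722 F1 it was 0.668% to 2.21%. Pooled over the members without COX1, it was 1.78%, 2.11% and 1.60% in the XZ1516 F1 libraries and 1.57%, 0.981% and 0.905% in the ECA722 F1 libraries. The same pooled share was 0.00918% to 0.052% in the F1 libraries of the other crosses. Without COX1, no other F1 library reached the level of the XZ1516 and ECA722 libraries. With COX1 included this did not hold, since the pooled share was 3.38% to 4.06% in the CB4856 F1 and 2.19% to 2.40% in the ECA701 F1, beside 1.76% to 2.38% in the XZ1516 F1 and at most 1.78% in the ECA722 F1.

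Within the XZ1516 F1 the members were not alike. The lowest wild shares were those of ND5, at 0.907% ± 0.175, and CYTB, at 1.29% ± 0.204 (SD, n = 3). In XZ1516 parents these 2 members had the lowest log2 differences from N2, -1.26 and -1.005. The highest wild shares were those of ND4, at 2.69% ± 0.592, and COX1, at 2.66% ± 0.448. In XZ1516 parents ND4 was at a mean of 377 CPM, beside 350 CPM in the libraries labelled N2. COX1 was at a mean of 2386 CPM in XZ1516 parents, beside 2661 CPM. Whether the wild share followed the parental level was not tested. Pooled over nuclear genes, the wild share was 51.6%, 51.9% and 51.6% in the XZ1516 F1 libraries, 50.5% to 50.8% in the ECA722 F1 and 49.7% to 50.6% in the other F1 libraries. Whether mitochondria from the father, animals that were not cross progeny or reads from another library gave the wild mitochondrial reads was not tested.

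**Figure D4:**
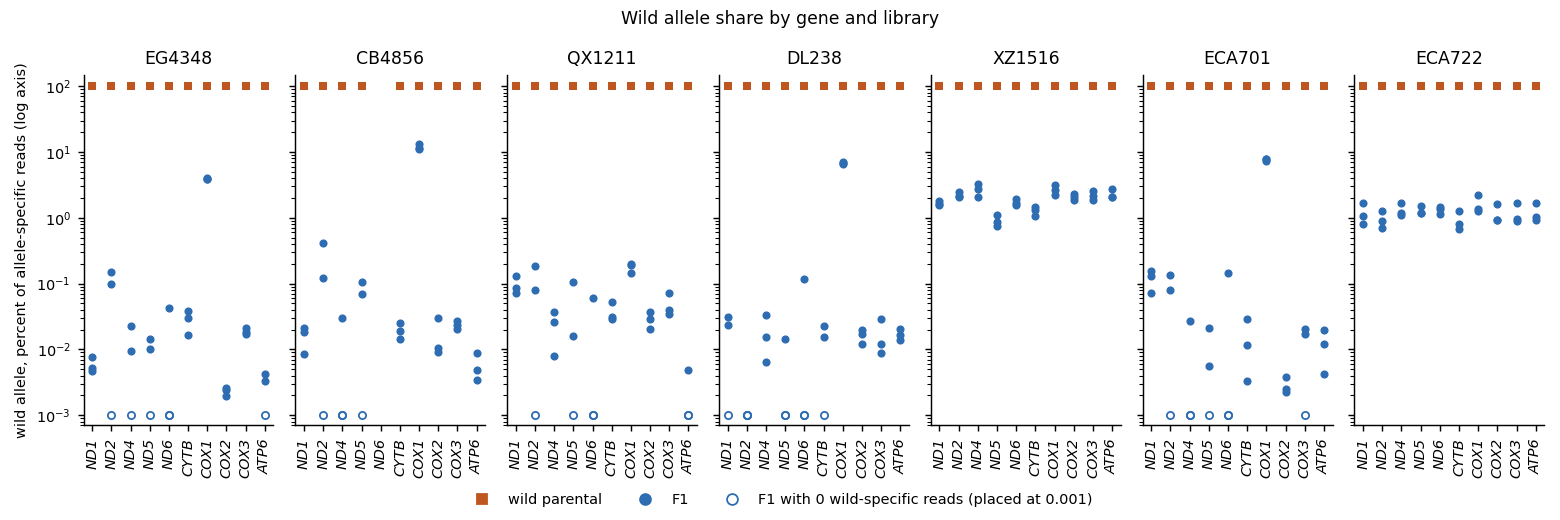
Percent of allele-specific reads that carry the wild sequence (vertical axis, logarithmic) for each member (horizontal axis) in each wild parental library (orange squares) and F1 library (blue circles), with 1 panel per wild strain. Open circles are F1 libraries with 0 wild-specific reads, placed at 0.001, and ND6 has no allele-specific read in CB4856. The F1 points lie below 0.42% except for COX1 in 4 crosses (3.93% to 13.1%) and for all members in XZ1516 and ECA722 (0.668% to 3.25%).

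The same complexes were followed through a list of nuclear subunits. All 39 nuclear genes listed for complexes I to IV and ATP synthase passed the count filter. Over the 7 wild strains 58 of 273 tests were called higher than N2 and 72 lower, or 21.2% and 26.4%, beside 19.2% and 21.3% over all genes, with a median log2 difference of -0.03 beside -0.01 over all genes. For complex I, 33 of 91 tests were lower and 7 higher. The named examples were lpd-5 and nduf-6, both complex I subunits, each called lower in 6 of 7 strains, with log2 differences of -0.30 to -0.09 and -0.23 to -0.09. Complex II, which has no mitochondrially encoded subunit, had 11 of 28 tests higher and 2 lower, and its sdha-1 was higher in 7 of 7 strains (0.12 to 0.36) and sdhb-1 in 2, with 1 lower. In complex III, with 15 of 42 tests higher and 10 lower, ucr-1 was higher in 7 strains (0.09 to 0.24), and cyc-1, cytochrome c1, was lower in 5. In complex IV 6 of 49 tests were higher and 10 lower, and cox-5A and cox-4 each had calls in both directions. In ATP synthase 19 of 63 tests were higher and 17 lower, with atp-1, the alpha subunit, higher in 6 strains (0.02 to 0.36) and asg-1, a subunit of the membrane part, lower in 6 (-0.31 to -0.10).

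Over all genes, 19.2% of tests of wild parents against N2 were higher and 21.3% lower. Among genes that maintain or express mitochondrial DNA, 3 of 56 tests were higher and 14 lower in wild parents (5.36% and 25%). The polymerase polg-1 had calls in both directions (-0.36 to 0.34), and mtss-1, the single-stranded DNA binding protein, was lower in 4 strains. In the list for removal of paternal mitochondria, 8 of 70 tests were higher and 16 lower (11.4% and 22.9%). Its lgg-2, an autophagy protein, was lower in 4 strains and higher in 1, and ikke-1 was higher in 4. The lower shares of both lists were near that over all genes. The mitochondrial stress list had 16 of 49 tests higher and 10 lower (32.7% and 20.4%). In F1 against N2, 21 of 49 tests of this list were higher and 12 lower (42.9% and 24.5%), beside 17.5% and 20.2% over all genes. The chaperones hsp-60 and hsp-6 were higher than in N2 in 7 and 6 wild strains (0.32 to 0.79 and -0.01 to 0.59). Both were higher in all 7 F1 groups (0.32 to 0.73 and 0.29 to 0.56). Neither chaperone was called lower than N2 in any of these groups, so all lower calls of the list were those of its other genes.

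Against N2, 61 of 273 F1 tests of the nuclear respiratory genes were higher and 46 lower, or 22.3% and 16.8% beside 17.5% and 20.2% over all genes. The complexes were not alike in this. For complex I, 8 of 91 F1 tests were higher and 26 lower (8.79% and 28.6%). Complex II had 14 of 28 higher and 0 lower, and ATP synthase 24 of 63 higher and 11 lower. Complex III had 9 of 42 higher and 3 lower, and complex IV 6 of 49 in each direction. For the members, 39 of 70 F1 tests were lower and none was higher. The nuclear genes whose level over the 45 libraries was most like the members' mean log2 level were rbx-1 (Pearson r = 0.676), F19B10.1 (0.663), C11H1.9 (0.646), C48B4.6 (0.643) and tes-1 (0.635), out of 11295 nuclear genes with a mean of at least 1 CPM. These libraries share strains, crosses and scaling, so r is a description only.

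Marker levels were compared between the groups as well. Over all genes, 17.5% of F1 tests against N2 were higher and 20.2% lower, and against the wild parents 18% and 17.8%. Summed CPM of 6 oocyte markers was 6340 to 6550 in the libraries labelled N2, 6330 to 8820 in wild parents and 7610 to 9350 in F1 libraries, and all 42 F1 tests of these genes against N2 were higher, as were 15 of 42 against the wild parents, with none lower. The 4 intestine markers summed to 439 to 488, 391 to 614 and 380 to 516 CPM, and the 4 body wall muscle markers to 1020 to 2370, 1510 to 2570 and 1360 to 2270 CPM in the same order. Against N2, 15 of 28 F1 tests of intestine markers were lower and 2 higher, and against the wild parents 25 were lower and 1 higher. For body wall muscle markers 4 F1 tests against N2 were higher and 1 lower, and 6 of 28 against the wild parents were lower and none higher. The higher calls against N2 (14.3%) and the lower calls against the wild parents (21.4%) were near the shares over all genes. The 4 sperm markers summed to at most 8.59, 18.5 and 21.5 CPM, the 4 early embryo markers to at most 3.46, 4.44 and 3.16 CPM, and the 2 male neuron markers to at most 0.988 CPM in any library. All of these markers passed the count filter. In wild parents against N2, the oocyte genes lin-41 and oma-2 were higher in 7 and 5 strains, the muscle myosins myo-3 and unc-54 in 7 and 3, and the intestinal ifb-2 in 7, while elt-2 was higher in 2 and lower in 1. Of the scarce markers, end-3 was higher in 2 and lower in 3, tbx-38 was lower in 2 and msd-1 in 5, spe-9 was higher in 2 and pkd-2 in 1, and lov-1 was not called. The part of these cell types in the members' differences was not tested.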

How the data were processed

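Per the labels' protocols, polyadenylated RNA was made into directional libraries. The submitters' processing notes name kallisto, Salmon 1.4, FastQC, Trimmomatic 0.39, DESeq2 1.42.0 and the build ce11, without roles. The authors deposited expected counts per gene and allele (Salmon with emase-zero, per the file names), Salmon equivalence classes and kallisto estimated counts per transcript. Lengths and class sizes, which the authors deposited in the same files, are other values and served only for lengths and for allele-specific reads. The tests were planned on the allele-aware totals, rounded, because F1 mitochondrial DNA was to come from N2 mothers. The plan took the kallisto counts of each F1 as made on the wild parent's transcripts alone. That index could not be checked in the sources used here. For the members the kallisto CPM was 0.997 to 1.1 times the allele-aware CPM. Each member's transcript had 1 length in all libraries.

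Rounded totals entered edgeR 4.0.16 under R 4.3.3 (quasi-likelihood test, TMM, default count filter, Benjamini-Hochberg adjustment over 17188 genes at 0.05), with 45 libraries in 1 fit and 30 residual degrees of freedom. Allele counts were tested per cross with the library as a term, keeping genes whose allele-specific reads averaged 10 or more. Shares are from reads in classes of 1 allele of 1 gene, and their exact 95% intervals cover counting error only, since PCR reads carry no molecular identifiers. Both models were tested on simulated data. Alternatives were kallisto counts, no count filter, scaling from nuclear genes, only the groups compared, DESeq2 1.42.0, a replicate block, other read minimums, the other kind of allele count and leaving out each library.

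The rule for the members reads no measured value, but the members and lists were chosen with earlier results of these data known. All members were named, with the 2 genes per list that had the largest change among those called in the most wild strains and the 5 genes most like the members. No 2 replicates of a group agreed within sampling noise, the chi-square per degree of freedom over genes being 5.13 to 63.7.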

Additional observations from a re-analysis of the deposited data

Results flagged for a closer look

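Results were marked for a second look where a difference from N2 was not alike in all crosses by a test of that inequality. The F1 groups, all with N2 mothers, differed in COX1 (adjusted p = 1.28e-06 by edgeR's quasi-likelihood test with Benjamini-Hochberg adjustment), COX3 (2.87e-05), CYTB (0.0143) and COX2 (0.0455), where 42.9% of all genes tested did so. These 4 of 10 members were near that share. COX1 differed from N2 by a log2 value of -0.47 in the CB4856 F1 and -0.08 in the ECA722 F1. COX3 differed by -0.41 in the XZ1516 F1 and -0.04 in the DL238 F1. CYTB differed by -0.44 in the XZ1516 F1 and -0.20 in the EG4348 F1, and COX2 by -0.33 in the CB4856 F1 and -0.07 in the ECA722 F1. The cause was not tested.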

How the results depend on the processing

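Of 70 tests per comparison, calls of wild parents against N2 numbered 37 in the reported fit and 33 to 35 with kallisto counts, without the count filter, with scaling from nuclear genes, with only the groups compared and with DESeq2. F1 against N2 gave 39, and 29 to 40 under the same alternatives, and F1 against wild parents gave 33, and 33 to 37. Parental strains differed in 9 members, and 8 to 9 under these alternatives, and F1 groups in 4, and 3 to 5. The allele test kept 69 calls under DESeq2, allele-specific reads, both read minimums and each left-out replicate. No named difference that passed a test changed sign under any alternative. Leaving out 1 library at a time gave 32 to 37 calls for wild parents against N2, 18 to 42 for F1 against N2, 32 to 36 for F1 against wild parents, 8 to 9 for parental strains and 3 to 5 for F1 groups. The 18 came without N2 parental replicate 3.

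Pooled over all members, the wild share was 3.76% in the CB4856 F1, 2.26% for DL238, 2.31% for ECA701, 1.299% for ECA722, 1.52% for EG4348, 0.0714% for QX1211 and 2.05% for XZ1516. From expected allele counts it was 1.16% for EG4348 and 2.43% for ECA701, a move past 1 SD, and the cause was not tested. Without COX1, an alternative added after the data were seen, it was 0.0184% for CB4856, 0.0154% for DL238, 0.0218% for ECA701, 0.0119% for EG4348 and 0.0359% for QX1211. Leaving out 1 F1 library gave 3.61% to 3.94% for CB4856, 2.201% to 2.34% for DL238, 2.27% to 2.37% for ECA701, 1.06% to 1.43% for ECA722, 1.51% to 1.52% for EG4348, 0.0637% to 0.0784% for QX1211 and 1.89% to 2.2% for XZ1516.

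Over all genes the replicate numbers did not meet the criterion for pairing, a correlation above 0.1 in every pair. Deviations of same-numbered samples of different groups correlated above 0.1 in 82 of 315 pairs, beside 96 of 630 pairs with different numbers (median r 0.0249 and -0.0144). Missing this strict criterion does not show that same-numbered samples were unrelated. With the number as a replicate block, calls were 48 for wild parents against N2, 41 for F1 against N2, 45 for F1 against wild parents, 10 for parental strains and 5 for F1 groups. For ND2 and ND6, in which replicate 1 was lowest in 14 of 15 groups, samples of 1 number did move together. For COX2 replicate 1 was lowest in 11 of 15 groups. With the block, ND2 was lower than N2 in 5 wild strains and ND6 in 4, and parental strains differed in ND2 (adjusted p = 0.000497). ND2 and ND6 limit what can be seen, at 14.7 to 65.1 CPM, and 3 samples per group limit all tests.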
